A study of Saccharomyces cerevisiae with 8 samples.

Results

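The comparison described here sets *ptc1 ptc6* cells against *ptc6* cells and asks which transcripts differ once *PTC1* is deleted in a strain that already lacks *PTC6*. For each yeast open reading frame (ORF) the log2 ratio of *ptc6* over wild type (wt) was subtracted from the log2 ratio of *ptc1 ptc6* over wt. An ORF was a member when it had a value in all 4 biological replicates, which held for 4361 of the 6212 ORFs on the arrays. A difference above 0 therefore means a higher transcript level in *ptc1 ptc6* than in *ptc6* cells, each relative to wt.

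All strains were *Saccharomyces cerevisiae* BY4741, haploid MATa cells with the *his3*, *leu2*, *met15* and *ura3* deletions, grown untreated at 28 °C in the rich medium YPD and collected in exponential phase. The *ptc6* strain carried *ptc6::kanMX4*, and the *ptc1 ptc6* strain carried *ptc1::NAT* together with the same *ptc6::kanMX4* deletion. On each 2-colour array, cDNA of a mutant and cDNA of wt cells were hybridised together to spotted ORF fragments. Each mutant was hybridised on 4 arrays, which are 2 biological replicates, each with a dye swap. The labels do not state which arrays form a replicate. Arrays with consecutive experiment numbers and exchanged dyes were taken as 1 replicate and averaged, so that n = 2 for each mutant, and every SE and p rests on this assignment. No array of the *ptc1* single mutant was analysed here, and whether both sets of arrays used the same wt RNA is not stated. A difference between the sets of arrays that does not come from *PTC1* cannot be told apart from the loss of *PTC1*.

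Ptc1 and Ptc6 belong to the type 2C protein phosphatases, metal-dependent enzymes that remove phosphate from serine and threonine. Ptc1 is known as a negative regulator of stress-activated MAP kinase pathways, among them the osmotic stress pathway and the cell wall integrity pathway, in which the kinase Slt2 activates the transcription factor Rlm1 and so the genes that build and repair the cell wall. Ptc6 is found in mitochondria, where it acts on the pyruvate dehydrogenase complex. Yeast takes up iron through a reductive system and through carriers of iron bound to siderophores, and the factors Aft1 and Aft2 induce both sets of genes when iron is scarce. Genes of ribosomal proteins and of ribosome assembly are transcribed strongly in rich medium and are repressed together under many stresses, while general stress genes under the factors Msn2 and Msn4 move the opposite way.

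The ORFs with a value numbered 4308 to 5537 on the *ptc6* arrays and 4050 to 4710 on the *ptc1 ptc6* arrays. Log2 ratios had an SD of 0.24 to 0.33 on the *ptc6* arrays and 0.42 to 0.54 on the *ptc1 ptc6* arrays. The replicate means of *ptc1 ptc6* correlated across the 4361 ORFs with Pearson r = 0.76, whereas those of *ptc6* correlated with r = 0.12. *ptc6* replicate 1 correlated with the *ptc1 ptc6* replicates at r = 0.27 and 0.27, and *ptc6* replicate 2 at r = -0.29 and -0.40. Single arrays joined as a replicate correlated at r = 0.31 and 0.42 in *ptc6*, where the other pairs of arrays reached at most 0.20. In *ptc1 ptc6* the joined arrays correlated at r = 0.48 and 0.58, below the arrays of the same dye in different replicates, at 0.77 and 0.79. The correlation within a replicate estimated over all 8 arrays was -0.0855. Joining the *ptc1 ptc6* arrays the other way gave 166 higher and 281 lower calls in the limma fit described below, and 58 of the 61 calls reported here were among them. These correlations describe the arrays, and ORFs are not replicates. The ratios of *ptc6* replicate 2 were kept in their stated direction, because the labels give the dyes and *PTC6* lies far below 0 in it. The *ptc6* replicates thus stand apart from each other, and results are also given without each of them where that matters.

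The targeted genes were examined first. *PTC1* had log2 ratios of 0.41, -0.13 and 0.20 on the 3 *ptc6* arrays with a value. On the *ptc1 ptc6* arrays it had -1.95, -3.43, -2.32 and -2.54. The sets did not overlap, and the difference was -2.78 (SE 0.18, limma adjusted p = 0.000833), the lowest of all ORFs tested. *PTC6*, deleted in both strains, had -2.27, -2.66 and -2.18 on 3 *ptc6* arrays and -3.16 and -4.73 on 2 *ptc1 ptc6* arrays. Its difference of -1.60 did not pass the test (adjusted p = 0.0682), and it is a difference between ratios of a deleted gene to wt. The nearest annotated neighbours with a value in all replicates were *RPT2*, *MED2* and *ATP16* beside *PTC1* and *FUB1*, *PAT1* and *AHC2* beside *PTC6*. They had differences between -0.56 and 0.12, and none passed. *PAT1*, which encodes an mRNA decapping activator, was low in both mutants, with replicate means of -1.11 and -0.53 in *ptc6* and of -0.91 and -0.89 in *ptc1 ptc6*. The other members of the phosphatase family, *PTC2*, *PTC3*, *PTC4*, *PTC5* and *PTC7*, had differences between -0.01 and 0.20, and none passed.

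Cells lacking both phosphatases had higher transcript levels than cells lacking Ptc6 alone of all 6 measured siderophore iron genes, of 4 of 10 genes for small heat shock and membrane stress proteins, of 7 of 24 cell wall integrity targets and of 4 of 24 stress genes of the Msn2/Msn4 type. With the threshold of 2-fold used in the study, 71 of 4361 ORFs (1.63%) were higher in *ptc1 ptc6* and 14 (0.321%) were lower. In the limma fit, 51 ORFs (1.17%) were higher and 10 (0.229%) were lower at an adjusted p under 0.05. A further 268 ORFs had an adjusted p between 0.05 and 0.06, so that the count of calls depends strongly on the threshold. Without adjustment, 388 ORFs were higher and 808 lower at p under 0.05, together 1196, against 218 expected in both directions together with no effect. The median difference over all ORFs was -0.09, the median SE was 0.16, and 38.9% of ORFs had a difference above 0. The replicate means of the mutants did not overlap in 882 ORFs that were higher in *ptc1 ptc6* (20.2%) and in 1722 that were lower (39.5%). In the same fit *ptc1 ptc6* differed from wt in 855 ORFs and *ptc6* in 2, and all 61 ORFs called in the difference were also called in *ptc1 ptc6* against wt. Of the 61 calls, 46 were kept when each array was centred on its median. When the spread was estimated on every ORF measured in either mutant, 9 were kept, and without *ptc6* replicate 1 or 2 the numbers were 12 and 3.

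**Figure D1:**
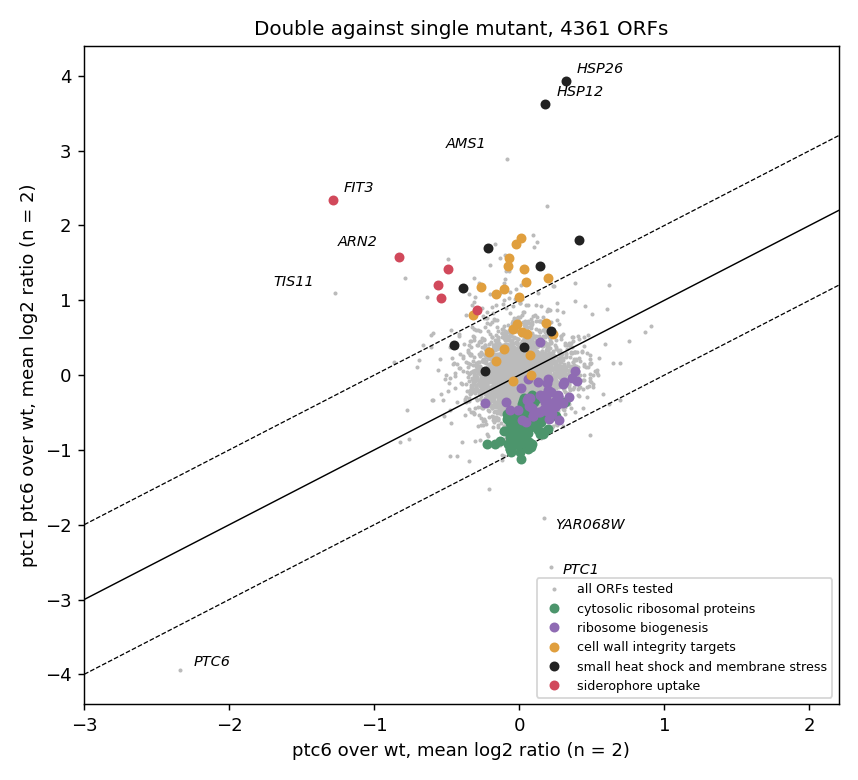
Mean log2 ratio over wt of each of the 4361 ORFs in *ptc6* (x axis) and in *ptc1 ptc6* (y axis), n = 2 replicates each. The solid line marks equal ratios and the dashed lines a difference of 2-fold. Coloured points are members of 5 gene lists. *FIT3*, *ARN2* and *TIS11* lie to the upper left, low in *ptc6* and high in *ptc1 ptc6*, while *HSP12* and *HSP26* lie above 3 on the y axis and near 0 on the x axis.

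The side from which each difference came was then examined. Of the 71 ORFs that were 2-fold higher, 52 were also past 2-fold in *ptc1 ptc6* against wt and 19 were not. In 58 of the 71 the *ptc6* ratio had the opposite sign to the *ptc1 ptc6* ratio, so that the *ptc6* side widened the difference. Its share of the difference had a median of 12.1%, and it made up the larger share in 5 ORFs. Only in *FIT3* and *TIS11* was the *ptc6* side itself past 2-fold. Of the 14 ORFs that were 2-fold lower, 7 were past 2-fold in *ptc1 ptc6* against wt. Conversely, 71 of the tested ORFs, not all of them the same, were past 2-fold in either direction in *ptc1 ptc6* against wt, and 12 of these differed from *ptc6* by less than 2-fold. The metallothionein gene *CUP1-1*, the acid phosphatase genes *PHO11* and *PHO12* and the ribosomal protein gene *RPS17A* were among them. A further 17 ORFs were past 2-fold in *ptc1 ptc6* but had no value in *ptc6* replicate 1, so their difference was not tested. Among them were *KDX1*, a kinase-like gene induced by cell wall damage, and *TSL1*, *GIP2*, *HXT5* and *PUT1*, singled out here after their values were seen.

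All measured siderophore iron genes were called. *FIT1*, *FIT2* and *FIT3* encode mannoproteins that hold siderophores in the cell wall, and *ARN1*, *ARN2* and *SIT1* encode transporters of the iron-siderophore complex. All 6 measured members of the list rose (6 of 6 called, against 1.17% of all ORFs), with a median difference of 1.84 against -0.09 over all ORFs. The 7th member, *ENB1*, had no value. Of the 6 calls, 3 were kept without *ptc6* replicate 1, 1 without *ptc6* replicate 2 and 2 in the fit on ORFs of either mutant. *FIT3* had log2 ratios of -1.29, -0.93, -1.63 and -1.30 on the *ptc6* arrays and of 1.89, 2.66, 2.08 and 2.75 on the *ptc1 ptc6* arrays. It was below 0 on every *ptc6* array and above 0 on every *ptc1 ptc6* array. The difference was 3.63 (SE 0.17), a 12.4-fold higher level, with adjusted p = 0.000221, the lowest in the fit. *ARN2* had -0.60, -0.67, -0.88 and -1.18 in *ptc6* and 1.45, 1.28, 1.95 and 1.65 in *ptc1 ptc6*. Its difference of 2.41 (SE 0.21) had adjusted p = 0.00288.

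The remaining members of the list had smaller differences of the same form. *FIT2* had replicate means of -0.40 and -0.58 in *ptc6* and of 1.02 and 1.83 in *ptc1 ptc6*, a difference of 1.92 (SE 0.25, adjusted p = 0.0244). *ARN1* had -0.36 and -0.77 against 0.92 and 1.48, and *FIT1* had -0.31 and -0.77 against 1.04 and 1.03. *SIT1* was the least changed, with -0.18 and -0.40 against 0.65 and 1.09 and a difference of 1.16 (adjusted p = 0.0402). Each gene was thus below wt in both *ptc6* replicates and above wt in both *ptc1 ptc6* replicates. *FIT2* and *FIT3* encode related proteins, and cross-hybridisation between their spotted fragments was not tested.

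**Figure D2:**
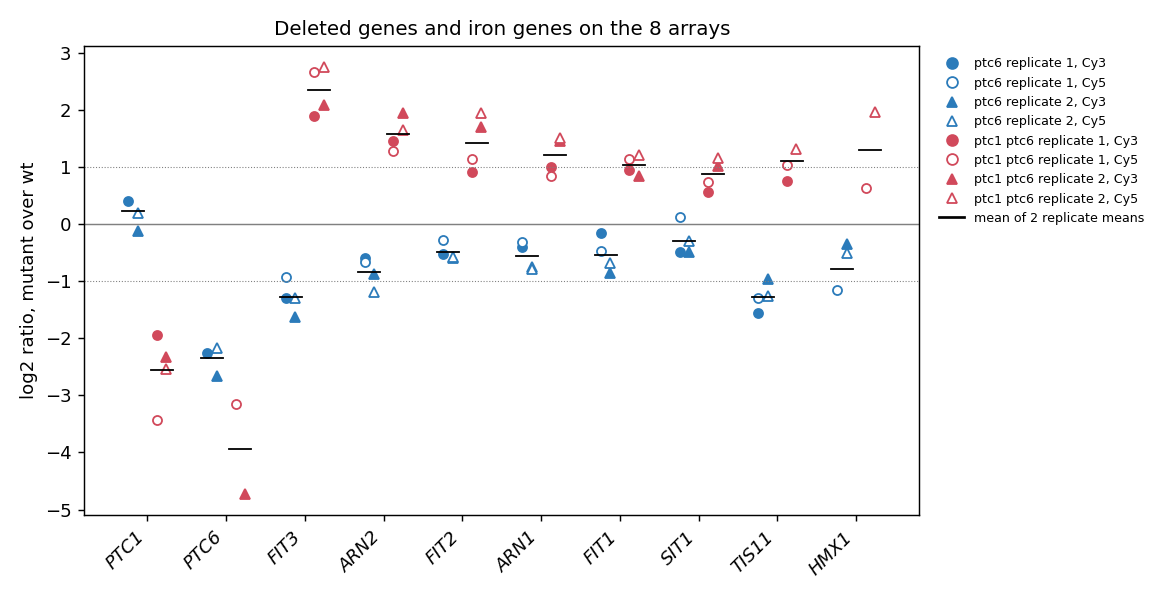
Log2 ratio over wt (y axis) of the deleted genes and of 8 iron genes (x axis) on every array with a value. Blue marks are *ptc6* and red marks *ptc1 ptc6*, circles replicate 1 and triangles replicate 2, filled marks the mutant in Cy3 and open marks the mutant in Cy5, black bars the mean of the replicate means, and dotted lines 2-fold. The red and blue marks do not overlap for any iron gene shown, and a single *ptc6* mark, *SIT1* at 0.13, lies above 0 among these iron genes.

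The other iron genes moved less evenly. *TIS11*, whose product binds and destabilises mRNAs of iron-using proteins when iron is scarce, had replicate means of -1.43 and -1.11 in *ptc6* and of 0.89 and 1.31 in *ptc1 ptc6*. It rose by 2.37 (SE 0.19, adjusted p = 0.00262). *HMX1*, the heme oxygenase that frees iron from heme, had -1.16 and -0.43 against 0.63 and 1.97, but its difference of 2.09 did not pass (SE 0.42, adjusted p = 0.0556) and rests on 3 *ptc6* and 2 *ptc1 ptc6* arrays. *TIS11* was the only call among 15 measured genes of iron sensing and sparing, against 1.17% of all ORFs called higher. The median difference of that list was 0.16. That median was -0.04 with the mutant in Cy3, -0.01 in Cy5 and -0.04 over the members with a value on all 8 arrays, so it has no settled sign. The call of *TIS11* was lost without either *ptc6* replicate. The regulator genes *AFT1* and *AFT2* differed by 0.26 and 0.16, which did not pass.

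In the reductive iron uptake list, which holds the ferroxidase *FET3*, the permease *FTR1* and the ferric reductases, none of the 10 measured members was called. All 10 differences lay above 0, with a median of 0.38 and a range of 0.03 to 0.44. *FET3* had replicate means of -0.38 and -0.12 in *ptc6* and of 0.18 and 0.19 in *ptc1 ptc6*, a difference of 0.44 (SE 0.16, adjusted p = 0.127). *FTR1* differed by 0.27 and *FTH1*, the vacuolar iron permease, by 0.43. The values of the siderophore list were therefore several times those of the reductive list on the log2 scale, but the difference between the lists was not tested. Genes of zinc and copper homeostasis had no call among 11 measured members and a median difference of -0.03. In that list *CUP1-1*, a copper metallothionein, had the lowest difference, -0.81 (adjusted p = 0.0563).

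Among stress genes the largest differences were found in *HSP12* and *HSP26*. *HSP12*, which encodes a membrane-associated protein made in many stresses, had log2 ratios of 0.18, 0.03, 0.28 and 0.23 on the *ptc6* arrays and of 2.97, 3.72, 3.81 and 4.01 on the *ptc1 ptc6* arrays. The difference was 3.45 (SE 0.20, adjusted p = 0.000609), a 10.9-fold higher level, and the *ptc6* arrays hardly departed from wt. *HSP26*, a small heat shock chaperone, had 1.33, 0.91, -0.51 and -0.45 in *ptc6* and 3.89, 3.98, 3.86 and 4.03 in *ptc1 ptc6*. Here the *ptc1 ptc6* arrays lay close together, while *ptc6* replicate 1 was above wt and replicate 2 below it. Its difference was 3.62 (SE 0.43, adjusted p = 0.0165). It came to 4.42 without *ptc6* replicate 1 and to 2.82 without *ptc6* replicate 2, and the call held in both.

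Of the 10 measured genes for small heat shock and membrane stress proteins, 4 rose and none fell, against 1.17% of all ORFs called higher, and all 10 differences were above 0 (median 1.36), against 38.9% of all ORFs. Of the 4 calls, only that of *HSP26* was kept without *ptc6* replicate 2, and the fit on ORFs of either mutant kept 2, *HSP12* and *MSC1*. Besides *HSP12* and *HSP26* the called genes were *MSC1* and *SSE2*. *MSC1* had replicate means of -0.03 and -0.41 in *ptc6* against 1.73 and 1.66 in *ptc1 ptc6*, and rose by 1.91 (SE 0.17, adjusted p = 0.00364). *SSE2*, which encodes a nucleotide exchange factor of Hsp70, had -0.10 and -0.67 against 1.07 and 1.25, and rose by 1.54 (adjusted p = 0.0259). *RTC3*, *TFS1*, an inhibitor of carboxypeptidase Y, and *HSP30* had differences of 1.39, 1.32 and 0.85, and did not pass. The small heat shock gene *HSP42* differed by 0.30 (adjusted p = 0.318). The list median was 0.23 in *ptc6* replicate 1 and -0.37 in replicate 2, against 1.14 and 1.45 in the *ptc1 ptc6* replicates.

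Chaperones of the Hsp70, Hsp90 and Hsp104 families were examined next. None of 17 measured genes for Hsp70, Hsp90, Hsp104 and their partners was called, and the median difference was -0.14, or 0.04 with the mutant in Cy3. The difference from the small heat shock list was not tested. Within the list *HSP78*, whose product is mitochondrial, *HSP104* and *SSA4* had differences of 1.04, 0.82 and 0.82, and *SSB1*, the ribosome-associated Hsp70, had -0.75. None of these passed, although the first 3 had an unadjusted p under 0.05, and 4 members were lower at that level. Genes of the unfolded protein response had no call among 14 members and a median of 0.02, with 0.30 for *KAR2*, the Hsp70 of the endoplasmic reticulum. Proteasome subunits had no call among 30 members and a median of -0.17. In the oxidative stress list, no call was made among 18 members, and the median was -0.25.

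Of 24 measured stress genes of the Msn2/Msn4 type, 4 rose and none fell, against 1.17% of all ORFs called higher, with a median difference of 0.61. The median was 0.89 without *ptc6* replicate 1, 0.30 without *ptc6* replicate 2 and 0.28 over the 17 members with a value on all 8 arrays. Of the 4 calls, 2 were kept under centring, 1 without *ptc6* replicate 1, and none without *ptc6* replicate 2 or in the fit on ORFs of either mutant. *AMS1*, the vacuolar alpha-mannosidase, had replicate means of 0.33 and -0.50 in *ptc6* against 2.05 and 3.72 in *ptc1 ptc6*. It rose by 2.97 (SE 0.50, adjusted p = 0.0439), with the *ptc1 ptc6* replicates further apart than in most named genes. *ATG8*, the ubiquitin-like protein of autophagosomes, rose by 1.67, *SOL4*, a 6-phosphogluconolactonase-like gene, by 1.61 and *ALD3*, an aldehyde dehydrogenase, by 1.29. *ALD2*, a near-identical tandem copy of *ALD3*, gave 1.26, and fragments of the pair cannot be told apart. The list was not uniform. *CTT1*, the cytosolic catalase and a common reporter of this response, had replicate means of -0.02 and -0.09 in *ptc6* and of -0.18 and -0.34 in *ptc1 ptc6*, a difference of -0.20 (adjusted p = 0.392), and *SOD2* had -0.48. The factor genes *MSN2* and *MSN4* differed by -0.18 and -0.10.

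Genes of the cell wall integrity response formed another group. Of 24 measured targets 7 rose and none fell, against 1.17% of all ORFs called higher. The median difference was 0.87, with 22 members above 0, against 38.9% of all ORFs. The replicate means did not overlap in 20 of the 24, all higher, against 20.2% of all ORFs. *PST1*, which encodes a secreted cell wall protein, had 0.34 and -0.39 in *ptc6* against 1.46 and 2.04 in *ptc1 ptc6* and rose by 1.77 (SE 0.28, adjusted p = 0.037). *PRM5*, a membrane protein gene under Slt2 signalling, had 0.49 and -0.47 against 1.54 and 2.13 and rose by 1.82 (SE 0.32, adjusted p = 0.0454). In both genes the *ptc6* replicates fell on opposite sides of wt. Centring each array kept 3 of the 7 calls and lost *PRM5*, *GSC2*, *CHS1* and *HSP150*, at adjusted p of 0.0547 to 0.0647. None of the 7 was kept in the fit on ORFs of either mutant or without either *ptc6* replicate.

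The remaining calls in this list encode structural proteins and enzymes of the wall. *GSC2*, the stress-induced catalytic subunit of 1,3-beta-glucan synthase, rose by 1.38, while its partner *FKS1*, used in normal growth, differed by 0.46 (adjusted p = 0.11). *SED1*, an abundant glycoprotein of the wall, rose by 1.25 with replicate means of 0.01 and -0.22 against 1.12 and 1.18. *CHS1*, a chitin synthase, rose by 1.12, *CRH1*, which links chitin to glucan, by 1.10, and *HSP150*, a wall protein with internal repeats, by 1.04. *PIR3*, *YPS3*, *SPI1*, *NCW2* and *FLC2* had differences of 1.64, 1.54, 1.44, 1.25 and 1.20 that missed the threshold, with adjusted p between 0.0527 and 0.0581. *CIS3* and *CCW14* differed by 0.32 and 0.67.

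The genes of the cascade that controls these targets mostly differed little. None of 13 was called and the median difference was 0.09. The exceptions in size were *SLT2*, the MAP kinase, and *RLM1*, its transcription factor. *SLT2* had log2 ratios of 0.50, 0.34, -0.61 and -0.48 on the *ptc6* arrays and of 1.17, 1.17, 1.77 and 1.69 on the *ptc1 ptc6* arrays. All *ptc1 ptc6* arrays lay above all *ptc6* arrays, but the spread of the *ptc6* replicates left the difference of 1.51 short of the threshold (SE 0.32, adjusted p = 0.0556). *RLM1* differed by 1.11 (adjusted p = 0.056) and the sensor gene *MID2* by -0.78 (adjusted p = 0.0783). *PKC1*, the kinase at the head of the cascade, differed by 0.13.

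**Figure D3:**
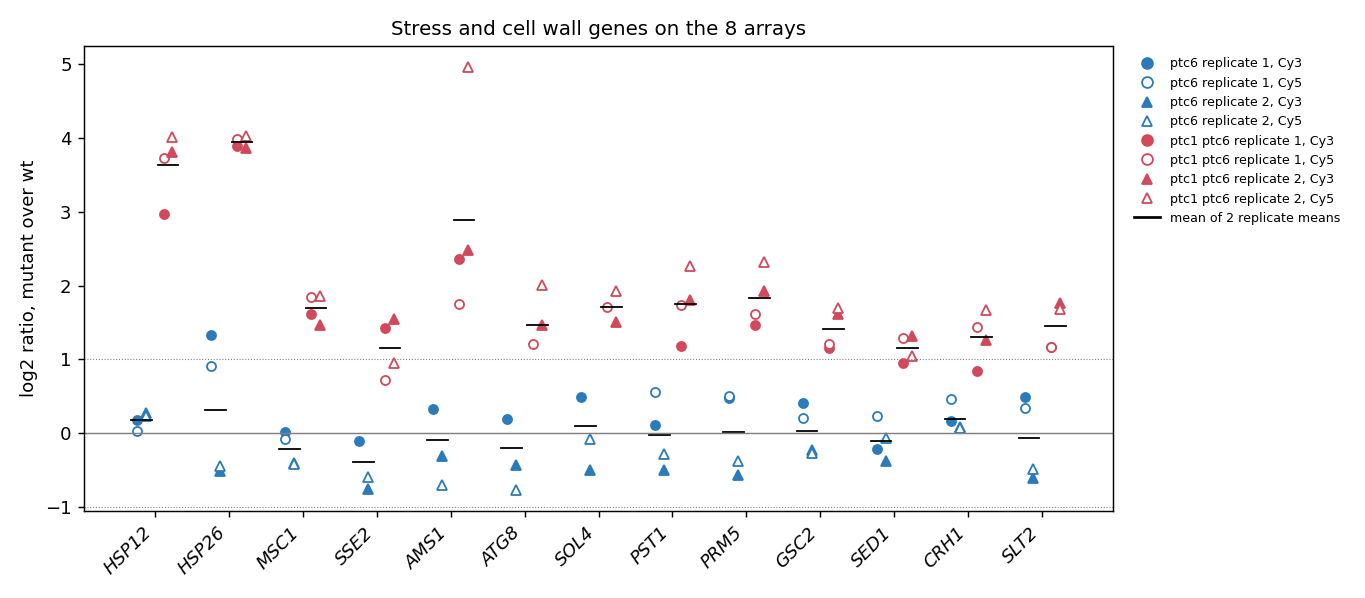
Log2 ratio over wt (y axis) of 13 stress and cell wall genes (x axis) on every array with a value, with the same marks as for the iron genes: blue *ptc6*, red *ptc1 ptc6*, circles replicate 1, triangles replicate 2, filled the mutant in Cy3, open the mutant in Cy5, black bars the mean of the replicate means. For *HSP26*, *PRM5*, *GSC2* and *SLT2* the blue circles lie above 0 and the blue triangles below it, while all red marks lie above all blue ones.

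Reserve carbohydrate genes were led by *GLC3*, the glycogen branching enzyme, which had replicate means of 0.31 and -0.57 in *ptc6* and of 1.54 and 1.60 in *ptc1 ptc6*. It rose by 1.70 (SE 0.27, adjusted p = 0.037). *GLC3* was the only call among 15 measured genes of glycogen and trehalose metabolism, against 1.17% of all ORFs called higher. The median difference of the list was 0.37. For *GLC3* the adjusted p was 0.0498 under centring and 0.0911 in the fit on ORFs of either mutant, where the call was lost. Its difference was 1.26 without *ptc6* replicate 2. *PGM2*, a phosphoglucomutase, differed by 1.66 (adjusted p = 0.0556). *GSY1*, a glycogen synthase, differed by 1.61 (adjusted p = 0.0863), with *ptc1 ptc6* replicates of 2.19 and 0.40 that were far apart. The trehalose genes *TPS1*, *TPS2* and *TPS3* had 0.60, 0.53 and 0.37, and none passed.

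Several calls concerned transport, signalling and metabolism outside these groups. *MEP2*, the high-affinity ammonium permease, rose by 1.43 (SE 0.21, adjusted p = 0.0277) and *AGP1*, an amino acid permease, by 0.90 (adjusted p = 0.0451). They were the calls among 14 measured genes under nitrogen catabolite repression, against 1.17% of all ORFs called higher, and both were lost without either *ptc6* replicate. The list median was 0.21, but 0.02 without *ptc6* replicate 1 and 0.07 without *ptc1 ptc6* replicate 2. *MEP1* differed by 0.86 (adjusted p = 0.056) and *GLN1*, glutamine synthetase, by -0.21. *AFR1*, a gene required to shape the mating projection, had replicate means of -0.07 and -0.27 against 1.75 and 1.76 and rose by 1.92 (SE 0.15, adjusted p = 0.00231). It was the only call among 14 measured genes of the pheromone response, against 1.17% of all ORFs called higher. The call was lost without *ptc6* replicate 2. In that list 10 differences were below 0 and the median was -0.39, and *STE2*, the pheromone receptor, *MFA2*, the pheromone precursor, and *BAR1*, the protease that degrades alpha factor, had -0.60, -0.59 and -0.62, which did not pass.

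*GCY1*, a glycerol dehydrogenase gene, rose by 1.47 (adjusted p = 0.0165). It was the only call among 17 genes of osmotic stress and glycerol metabolism, against 1.17% of all ORFs called higher. The call was lost in the fit on ORFs of either mutant (adjusted p = 0.0533). Its difference was 1.61 without *ptc6* replicate 1 and 1.325 without *ptc6* replicate 2. The list had a median of 0.10, with *HOG1*, the osmotic MAP kinase, at 0.31, *GPP2* at 0.41 and *GPP1* at -0.55. *PYK2*, the pyruvate kinase isoform of low glycolytic flux, rose by 1.10 (adjusted p = 0.0267), whereas the other 17 glycolytic genes lay between -0.45 and -0.06. The call of *PYK2* was lost in the fit on ORFs of either mutant (adjusted p = 0.0648). Its difference was 1.19 without *ptc6* replicate 1 and 1.00 without *ptc6* replicate 2. *BDH2*, a putative butanediol dehydrogenase gene, had replicate means of -0.27 and -0.29 against 1.17 and 1.29 and rose by 1.51 (SE 0.14, adjusted p = 0.0042). *CRG1*, a methyltransferase gene, *VVS1*, *KTD1* and *NNR1* rose by 2.08, 1.34, 1.02 and 1.00. These calls were lost in the limma fit on ORFs of either mutant, at adjusted p of 0.0626 to 0.08, where that of *BDH2* was kept (0.0167). In all, 28 of the 51 called higher were in one of the gene lists and 23 were in none. The latter included *ATG32*, the mitophagy receptor, at 1.07 and *HEM25*, a mitochondrial glycine carrier, at 0.94, singled out after their values were seen. The drug efflux pump *PDR5* differed by 1.35 and the peroxisomal citrate synthase *CIT2* by 2.05, and neither passed (adjusted p = 0.0563 and 0.0518). *NCA3* and *PHO89* differed by 0.98 and 0.03 and did not pass either.

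The transcripts that were lower in *ptc1 ptc6* were mostly shifted by small amounts. Apart from *PTC1* itself, *YAR068W*, of unknown function, fell by more than 2-fold and passed the test, with a difference of -2.08 (SE 0.20, adjusted p = 0.0042). *YAR068W* rests on 3 *ptc6* and 2 *ptc1 ptc6* arrays. Also called lower were *RPL11B*, *AAH1*, *COX5A*, *NOG1*, *KAP122*, *NSR1* and *YPR142C*, with differences between -0.99 and -0.79. They encode a ribosomal protein, adenine deaminase, a cytochrome oxidase subunit, a GTPase and a nucleolar protein of ribosome assembly, a nuclear import factor and an ORF of unknown function.

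Ribosomal protein genes were lower by small amounts that rarely passed the test. Of 122 measured genes, all 122 differences lay below 0, against 61.1% of all ORFs, with a median of -0.74 and a range of -1.13 to -0.34. Only *RPL11B*, with replicate means of 0.06 and 0.22 in *ptc6* against -0.67 and -0.91 in *ptc1 ptc6*, passed the test (difference -0.93, SE 0.16, adjusted p = 0.0439), which is 1 of 122 against 0.229% of all ORFs. Its call was lost under centring (adjusted p = 0.0647), in the fit on ORFs of either mutant (0.0966), and without *ptc6* replicate 1 (0.0558), *ptc6* replicate 2 (0.177) or *ptc1 ptc6* replicate 2 (0.0752). With all 8 arrays and the replicate as a random block, limma called 101 of the 122 lower, against 531 of 4361 ORFs. The within-replicate correlation was estimated there at -0.0855, so dye-swapped arrays of the same replicate counted as about independent. That count thus rests on arrays, not on biological replicates. Some fits on replicate means also called many lower. They called 96 of 118 members with a value on all 8 arrays, against 348 of 3436 ORFs. With the *ptc1 ptc6* dye swaps joined the other way, 80 of 120 were lower, against 281 of 4300 ORFs. Centring called none, and the mutant in Cy3 gave 7 of 119, against 14 of 3850 ORFs. In the fit that gave 1 call, 112 of the 122 were lower at unadjusted p under 0.05, against 808 of 4361 ORFs. The replicate means of the mutants did not overlap in 116, against 39.5% of all ORFs. *RPS27B* had the lowest difference, -1.13 (adjusted p = 0.0528), with -0.19 and 0.21 in *ptc6* and -0.88 and -1.35 in *ptc1 ptc6*. The list median was -0.66 and -0.76 in the *ptc1 ptc6* replicates. It was -0.21 in *ptc6* replicate 1 and 0.25 in replicate 2, so the *ptc6* replicates disagreed on the side of wt, and the median difference was -0.95 without replicate 1 and -0.53 without replicate 2. Copies such as *RPL42A* and *RPL42B*, at -1.04 and -1.01, are nearly identical and cannot be told apart on these arrays.

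Genes of ribosome biogenesis differed in the same direction. Of 53 measured members 2 fell and none rose, against 0.229% of all ORFs called lower. The differences were below 0 in 52, against 61.1% of all ORFs, and the median was -0.53. The called members were *NOG1*, with 0.25 and 0.29 in *ptc6* against -0.69 and -0.50 in *ptc1 ptc6*, and *NSR1*, with 0.20 and 0.21 against -0.64 and -0.54. Both calls were lost under centring (adjusted p = 0.0676 for each), in the fit on ORFs of either mutant (0.0966) and without either *ptc6* replicate. The fit of all 8 arrays, in which dye-swapped arrays counted as about independent, called 30 lower, against 531 of 4361 ORFs. Some fits on replicate means also called many lower. They called 26 of 50 members with a value on all 8 arrays, against 348 of 3436 ORFs. With the *ptc1 ptc6* dye swaps joined the other way, 24 of 52 were lower, against 281 of 4300 ORFs. Centring and the mutant in Cy3 called none. In this list the *ptc6* replicates lay together, with medians of 0.16 and 0.20, and the difference was -0.56 without replicate 1 and -0.50 without replicate 2. *NOP1*, fibrillarin, was the exception at 0.30. Translation elongation genes had no call among 11 members and a median of -0.40. As a comparison, 12 housekeeping genes had no call and a median difference of -0.14, with *ACT1* at -0.11. Histone genes had no call among 10 members and a median of -0.33.

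**Figure D4:**
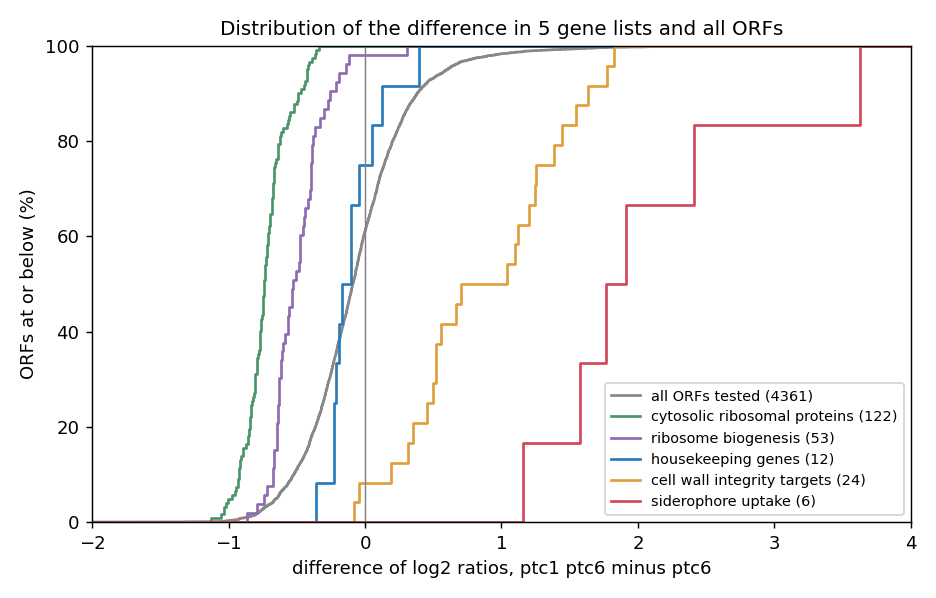
Share of ORFs (y axis, %) with a difference of *ptc1 ptc6* minus *ptc6* at or below the value on the x axis (log2 scale), for all 4361 ORFs and for 5 gene lists with the number of measured members in parentheses. The curve of ribosomal proteins lies wholly left of 0, between -1.13 and -0.34, and that of siderophore uptake wholly right of 1.

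Amino acid synthesis was lower in *ptc1 ptc6* by value, with no member called. In the lysine pathway the *ptc6* replicates were above wt, with list medians of 0.66 and 0.27 over 9 genes, and the *ptc1 ptc6* replicates were at -0.11 and -0.15. *LYS20*, homocitrate synthase, had replicate means of 1.06 and 0.33 in *ptc6* against -0.30 and -0.36 in *ptc1 ptc6* (difference -1.03, SE 0.23, adjusted p = 0.0564). *LYS4*, *LYS21*, *LYS9* and *LYS12* differed by -0.91, -0.83, -0.62 and -0.52. *LYS1*, saccharopine dehydrogenase, which catalyses the final step, remained above wt in all replicates, with 1.04 and 0.47 against 0.61 and 0.30, and differed by -0.30 (adjusted p = 0.398).

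In the synthesis of branched-chain amino acids, 11 of 12 differences were below 0, against 61.1% of all ORFs, and the median was -0.69. *LEU1*, isopropylmalate isomerase, had -0.73 and 0.31 in *ptc6* against -1.43 and -1.61 in *ptc1 ptc6*, a difference of -1.31 (SE 0.31, adjusted p = 0.0569). *OAC1*, a mitochondrial carrier used by the leucine pathway, had -0.72 and 0.48 against -0.84 and -1.43 (adjusted p = 0.133). Here the *ptc6* replicates again stood on opposite sides of wt, and the list median was -1.03 without replicate 1 and -0.36 without replicate 2. In the phosphate regulon, 17 of 18 differences were below 0, against 61.1% of all ORFs, with a median of -0.48, and none passed. The median was -0.17 without *ptc1 ptc6* replicate 2. The *ptc1 ptc6* replicates disagreed there, with list medians of -0.02 and -0.77. *PHO84*, the high-affinity phosphate transporter, had 0.15 and -1.04 in them, and *PHO11*, an acid phosphatase gene nearly identical to *PHO12*, had -0.53 and -1.62.

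Mitochondrial and central carbon genes gave few calls. *COX5A*, the subunit of cytochrome oxidase used in aerobic growth, fell by 0.87 on the log2 scale (SE 0.15, adjusted p = 0.0444), with 0.40 and 0.37 in *ptc6* against -0.39 and -0.59 in *ptc1 ptc6*. The call was lost under centring (adjusted p = 0.0656), in the fit on ORFs of either mutant (0.0966), and without *ptc6* replicate 1 (0.0629), *ptc6* replicate 2 (0.177) or *ptc1 ptc6* replicate 2 (0.0922). It was the only call among 26 genes of the citrate cycle and the respiratory chain, against 0.229% of all ORFs called lower. The median of that list was -0.20. *IDH1*, a subunit of isocitrate dehydrogenase, differed by 1.06 and *COX6* by -0.56, and neither passed. In the pyruvate dehydrogenase complex and its regulators, on which Ptc6 acts, none of 8 genes was called. The kinase genes *PKP1* and *PKP2* had 0.59 and 0.58, and the 5 subunits, among them *PDA1* and *LPD1*, lay between -0.21 and -0.03. Calcineurin targets and hexose transporters also had no call, with medians of 0.15 over 13 genes and 0.10 over 8.

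**Figure D5:**
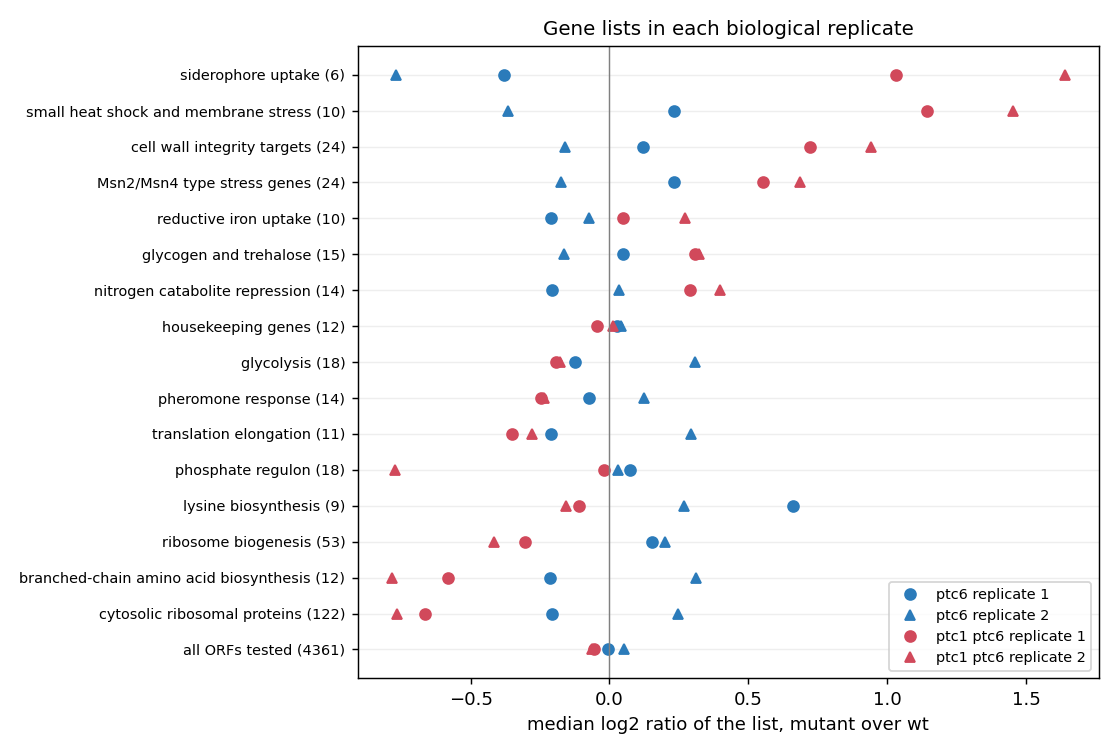
Median log2 ratio over wt (x axis) of 16 gene lists and of all ORFs in each biological replicate, with the number of measured members in parentheses. Blue is *ptc6* and red *ptc1 ptc6*, circles are replicate 1 and triangles replicate 2. The red marks lie right of both blue marks in the upper 7 lists. In every other row they lie left of both, the rows of housekeeping genes and of all ORFs included. The phosphate regulon shows the widest gap between the red marks.

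The effect of each replicate on the calls was then examined. Leaving out *ptc6* replicate 1 gave 14 higher and 3 lower, and leaving out *ptc6* replicate 2 gave 2 higher and 1 lower. Leaving out *ptc1 ptc6* replicate 1 gave 157 higher and 134 lower, and leaving out *ptc1 ptc6* replicate 2 gave 83 higher and 15 lower. *FIT3*, *HSP26* and *PTC1* were called in all of these fits. In each such fit a mutant has 1 replicate, which is assumed to vary like the 2 of the other mutant. Restricting the test to the 3436 ORFs with a value on all 8 arrays called 111 higher and 348 lower, so that the excess of higher over lower calls did not hold there. In the list of siderophore uptake, the median difference was 1.99 without *ptc6* replicate 1 and 1.69 without *ptc6* replicate 2. For the targets of cell wall integrity these values were 1.00 and 0.82, and for the small heat shock genes 1.75 and 0.84.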

How the data were processed

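Per the labels and the methods, total RNA of exponential cultures was reverse transcribed, labelled with Cy3 or Cy5 and hybridised to arrays of PCR-amplified ORFs. After scanning, the authors removed spots that were small or dim, pre-processed the ratios in GEPAS and deposited a log2 ratio per ORF and array. How the ratios were normalized is not given in the sources used here. The base was taken as 2, the scale on which the study gives inductions. No channel signal was used, so spots could not be judged against background; the number of arrays limits the precision. Arrays were already turned to mutant over wt, as the deleted ORFs show, and the medians of the arrays were -0.10 to 0.03.

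Arrays with consecutive experiment numbers and exchanged dyes were averaged as 1 biological replicate. The fit used limma version 3.58.1 under R version 4.3.3 on the 4 replicate means (lmFit, eBayes, group means without intercept, two-sided), and the contrast was adjusted by Benjamini-Hochberg over 4361 ORFs with a threshold of 0.05. The methods name no test. Differences, SEs and list medians are on the log2 scale. The fit was tested on simulated data. Symbols came from the R64 gene table, in which 5662 of 6212 names matched; no coordinates or sequences were used.

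The members, tests and 30 gene lists were chosen with earlier results of these data known, so no test over a list was made. Named genes are *PTC1*, *PTC6*, their neighbours, the 20 calls of lowest adjusted p, the 12 highest and the 12 lowest differences, the genes the study names, and the 4 members of lowest p in each list. Other list members and calls were named after their values were seen, and 1 gene that the rule names is not reported here. Alternatives were centring, filters, dye orientation, blocks, weights and leaving out each replicate. The replicate numbers do not pair the samples: same-numbered deviations correlated at r = -0.21.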

Additional observations from a re-analysis of the deposited data

Results flagged for a closer look

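In groups of 4 arrays, 1 array lay far from the other 3 in 6 of 218 groups of named genes that were searched, where chance alone gives about 10.9. In *ptc6* replicate 1, *FET3* was at -0.617 with the mutant in Cy3 (others -0.158 to -0.091) and *MED2* at -0.127 with the mutant in Cy5 (others 0.231 to 0.301). In *ptc6* replicate 2, *MSN4* was at 0.281 with the mutant in Cy3 (others -0.255 to -0.172) and *FKS1* at -0.331 with the mutant in Cy5 (others -0.034 to -0.020). In *ptc1 ptc6* replicate 2 with the mutant in Cy3, *LYS1* was at 0.036 (others 0.573 to 0.628) and *PKC1* at 0.340 (others -0.058 to 0.006). None of these genes passed the test of the difference.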

How the results depend on the processing

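Counts are given as higher then lower in limma, against 51 and 10, and for the 2-fold rule against 71 and 14. Centring each array on its median gave 43 and 3, and 86 and 6 by 2-fold. ORFs with a value on all 8 arrays gave 111 and 348, and 43 and 11 by 2-fold. All 8 arrays with the replicate as a random block gave 268 and 531, and 233 and 456 with a dye term added. In the former the within-replicate correlation was -0.0855, so dye-swapped arrays counted as about independent. The mutant in Cy3 gave 70 and 14, and in Cy5 95 and 263, with 29 lower by 2-fold in Cy5. A replicate block by number gave 134 and 134, although the numbers do not pair the samples, and all 61 calls were among these. Alternatives chosen after seeing the data were the crossed pairing, with 188 and 294, *ptc1 ptc6* dye swaps joined the other way, with 166 and 281, a fit on every ORF of either mutant, with 7 and 2, and group weights, with 52 and 10. Robust eBayes gave 50 and 15. Leaving out 1 replicate gave 2 to 157 higher and 1 to 134 lower, and by 2-fold 66 to 100 higher and 11 to 81 lower. The cause of these shifts was not tested.

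None of the 45 calls among 129 named genes changed sign under any alternative that gave a value. Signs turned in genes without a call: *PTC7* (0.061) under centring, *FUB1* (-0.0475), *PTC2* (-0.076), *PTC7* (0.052) and *MSN4* (0.0865) in Cy3, and *MED2* (-0.0365), *PTC3* (-0.137), *AFT2* (-0.0945) and *PHO89* (-0.0235) in Cy5. Leaving out 1 replicate turned the sign over ranges of -0.00925 to 0.175 in *FUB1*, -0.00275 to 0.245 in *MED2*, -0.2445 to 0.042 in *MSN4*, -0.176 to 0.786 in *NOP1*, -0.364 to 0.218 in *PAT1*, -0.151 to 0.204 in *PHO89*, -0.0678 to 0.133 in *PTC2*, -0.0518 to 0.106 in *PTC3* and -0.064 to 0.043 in *PTC7*. Of 30 list medians, 6 turned sign under an alternative. They were the chaperones (-0.326 to 0.037), iron sensing and sparing (-0.0435 to 0.231), osmotic stress (-0.013 to 0.176), the phosphatase family (-0.0185 to 0.191), pyruvate dehydrogenase (-0.0994 to 0.0428), and zinc and copper (-0.147 to 0.0978). With n = 2 and no channel signals, an ORF under the threshold cannot be said to be unchanged.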

Other observations

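Some genes of the groups above had no value in *ptc6* replicate 1 and could not enter the difference, although their *ptc1 ptc6* ratios were high. They were named after their values were seen. *KDX1*, a target of the cell wall integrity pathway, had log2 ratios of 3.30, 3.13, 3.71 and 3.21 on the *ptc1 ptc6* arrays and of -0.19 and -0.31 on the arrays of *ptc6* replicate 2. *SRL3*, in the same list, had 2.12, 1.80, 2.24 and 2.94 against -0.30 and -0.38. *HXT5*, a hexose transporter gene made when growth slows, had 1.75, 2.28, 2.21 and 3.62 against -0.54 and -0.58. *TSL1*, a subunit of the trehalose synthase complex, had 0.87, 0.97, 1.76 and 1.69 against -0.70 and -0.48. In each of these genes the *ptc1 ptc6* arrays lay above the *ptc6* arrays that gave a value, and no test was made.

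*PCA1*, a cadmium-transporting ATPase gene of the metal list, had 0.95, 1.03, 1.58 and 2.42 in *ptc1 ptc6* against -0.19 and -0.48. *GDH2*, the glutamate dehydrogenase that releases ammonium, had 1.07, 0.58, 1.00 and 0.95 against -0.42 and -0.35. *LYS2*, which lacks a value in *ptc6* replicate 2, had 0.40 and 0.31 in *ptc6* replicate 1 and -0.08, -0.29, -0.38 and -0.48 in *ptc1 ptc6*.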
